A study of Mus musculus with 81 samples.

Results

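The phagocyte NADPH oxidase was followed here through 5 of its subunit genes, Cybb, Cyba, Ncf1, Ncf4 and Rac2, in bone marrow neutrophils of inbred mouse strains. The members were every probe set whose only platform gene symbol was one of these names. They came to 5 probe sets, 1 per gene, of 24922 probe sets on the array, and to 5 of the 19752 genes named by a probe set with a single symbol. Values are log2 of the deposited intensity, and a difference of 1 on this scale is a doubling of signal.

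The oxidase is the enzyme with which neutrophils make superoxide at the phagosome and the cell surface. Cybb (gp91phox) carries the electrons across the membrane and is held stable there by Cyba (p22phox), while Ncf1 (p47phox, the organiser that is phosphorylated on activation), Ncf4 (p40phox, which binds a phosphoinositide of the phagosome membrane) and the small GTPase Rac2 wait in the cytosol of resting cells and join the membrane pair on activation. Inherited loss of Cybb, Cyba, Ncf1 or Ncf4 function causes chronic granulomatous disease, and loss of Rac2 function impairs neutrophil movement and superoxide production.

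The series held 81 arrays of CD11b+ Ly6G+ cells sorted from the bone marrow of males, 6 weeks old by their labels, with no treatment named. Each array was made from cells pooled over several animals, and the design text calls the arrays of a strain biological replicates. The titles gave 40 groups: 37 of 2 arrays, C57BL/6J of 5, and FVB/NJ and SWR/J of 1 each. Of these, 5 were wild-derived by name (MSM/Ms and JF1/Ms, PWD/PHJ, WSB/EiJ and CAST/EiJ) and 35 were treated as classical. The other groups whose title and background label did not conflict were 129S1/SvImJ, A/J, AKR/J, C3H/HeJ, C57BL/10J, C57BLKS/J(662), C57L/J (668), CBA/CaJ, CBA/J, CE/J, DDY/JclSidSeyFrkJ, KK.Cg-Ay/J, LGJ, LP/J(676), MA/MyJ, MRL/MpJ, NOD/ShiLtJ, NON/ShiLtJ, NOR/LtJ, NZB/BINJ, NZW/LacJ, P/J, PL/J, RIIIS/J, SEA/GnJ, SJL/J and SM/J. KK.Cg-Ay/J carries the Ay allele, which the other strains are not labelled to carry. In 5 groups (10 arrays) the title and the background label named different strains, and these are given by title: titled BPL is labelled BALB/cByJ, titled BTBR is labelled BPL/1J, titled Balb is labelled BTBR T+ tf/J, titled C57BR is labelled CBA/CaJ, and titled DBA2 is labelled DBA/1LacJ.

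Neutrophil transcripts were bright throughout: the mean of 12 neutrophil markers lay between 13.27 in titled BTBR and 13.41 in SEA/GnJ. Array medians lay between 6.60 and 6.84. NZB/BINJ stood apart from the other strains. It differed from the mean of the other 39 at 33.3% of probe sets, against 17.2% in JF1/Ms, the next strain. Its replicate 1 had the highest array median (6.84) and the lowest mean correlation with the other arrays (0.962, next 0.971). This array also had the highest 5th percentile (4.35) and the lowest 95th percentile (10.61). NZB/BINJ also had the highest mean of the B cell markers (6.45) and of the erythroid markers (6.87) and ranked 39 of 40 for the monocyte and macrophage markers (7.63). The B cell and erythroid values lay close to the array medians, so they come from dim probe sets. The calls of members that rest on NZB/BINJ are therefore given without its arrays or under other scalings. In sorted bulk samples, fewer cells of a type and less RNA per cell cannot be told apart.

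Promoter windows of 3 of the 5 genes (Ncf1, Cyba and Cybb) were matched in the RefSeq table of GRCm38.p6. They are shown because the genes of the oxidase are classic targets of the ETS factor PU.1 (Spi1), whose myeloid sites read GAGGAA, or TTCCTC on the other strand. Each window runs 5′ to 3′ on the minus strand, from 250 bases before the annotated start to 50 after it, and capitals mark a GAGGAA match on either strand.
Cybb, chrX:9469275-9469574: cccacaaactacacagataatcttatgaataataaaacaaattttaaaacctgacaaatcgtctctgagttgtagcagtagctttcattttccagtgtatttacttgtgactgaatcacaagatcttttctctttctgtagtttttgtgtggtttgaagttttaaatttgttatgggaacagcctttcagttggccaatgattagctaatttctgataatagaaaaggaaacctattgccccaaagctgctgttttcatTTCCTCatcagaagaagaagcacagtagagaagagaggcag
Cyba, chr8:122432891-122433190: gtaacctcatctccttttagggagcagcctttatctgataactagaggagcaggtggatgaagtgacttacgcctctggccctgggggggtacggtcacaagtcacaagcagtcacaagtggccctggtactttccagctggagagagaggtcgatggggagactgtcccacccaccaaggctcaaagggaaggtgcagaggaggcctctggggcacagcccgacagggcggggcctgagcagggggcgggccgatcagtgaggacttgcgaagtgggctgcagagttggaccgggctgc
Ncf1, chr5:134229576-134229875: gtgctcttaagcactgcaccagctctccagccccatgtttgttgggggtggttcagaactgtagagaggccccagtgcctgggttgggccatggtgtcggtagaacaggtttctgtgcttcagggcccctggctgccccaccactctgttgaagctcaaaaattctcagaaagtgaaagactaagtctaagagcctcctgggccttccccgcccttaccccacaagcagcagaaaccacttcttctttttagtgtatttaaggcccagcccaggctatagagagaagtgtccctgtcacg
The Cybb window held 1 match, just downstream of the annotated start, and the Cyba and Ncf1 windows held 0. The motif, which contains the GGAA core of ETS sites, was present in 28.3% of all 32851 windows of the table, and GGAA or TTCC alone in 96% of them, so a match here is a description of the letters only. The base composition differed among the windows, with 35.3% G and C for Cybb, 54% for Ncf1 and 60.7% for Cyba.

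All 5 subunit genes were bright in every strain. As deposited, the strain ranges of Cybb and Rac2 were narrow beside those of all probe sets, while that of Ncf4 lay near the median. On the deposited scale, the distance from the lowest to the highest strain mean was 0.27 for Cybb (1.21-fold), 0.38 for Rac2 (1.30-fold), 0.43 for Ncf1 (1.34-fold), 0.55 for Cyba (1.47-fold) and 0.65 for Ncf4 (1.57-fold). Of all probe sets, 0.225% had a smaller range than Cybb and 4.75% a smaller range than Rac2. For Ncf1 the share was 11.4%, for Cyba 36.0% and for Ncf4 50.7%. The median range was 0.645 over all probe sets and 0.579 over those whose mean was at least 12, a class that holds these genes. Cybb (mean 13.37) and Rac2 (13.19) lay well above that cut, and the highest value of the series was 14.24. Among neutrophil markers with means of 13.48 to 13.66, ranges included 0.19 (Ngp), 0.21 (S100a9), 0.44 (Ly6g) and 0.57 (S100a8). Whether ranges are compressed near the top of the scale was not tested. The ranges depended on the scaling of the arrays: that of Cybb was 0.40 with arrays shifted to a common median and 0.49 after quantile normalization, and that of Rac2 was 0.51 and 0.31. Cybb was the narrowest of the 5 on the deposited scale and with a common median, Rac2 after quantile normalization. Ncf4 was the widest under all 3 scalings, with 0.61 and 0.80 in the same order.
Ncf4, Ncf1 and Cyba differed among the 40 strains in limma's moderated F test, with Benjamini-Hochberg adjustment over all probe sets. The adjusted p was 1.29e-05 for Ncf4, 0.000581 for Ncf1 and 0.0141 for Cyba. Cybb (adjusted p = 0.107) and Rac2 (0.228) did not pass. The count of 3 of 5 stands beside 56.0% of all probe sets and 74.7% of those with a mean of at least 12. The share of the variance lying between strains was 62.7% for Ncf4, 59.7% for Ncf1, 41.3% for Cyba, 38.8% for Cybb and 27.2% for Rac2. Both genes that missed the threshold passed it under another scaling of the arrays: Cybb at 0.000313 and Rac2 at 0.013 after quantile normalization, and Cybb at 0.0175 and Rac2 at 0.0471 with arrays shifted to a common median.

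**Figure D1:**
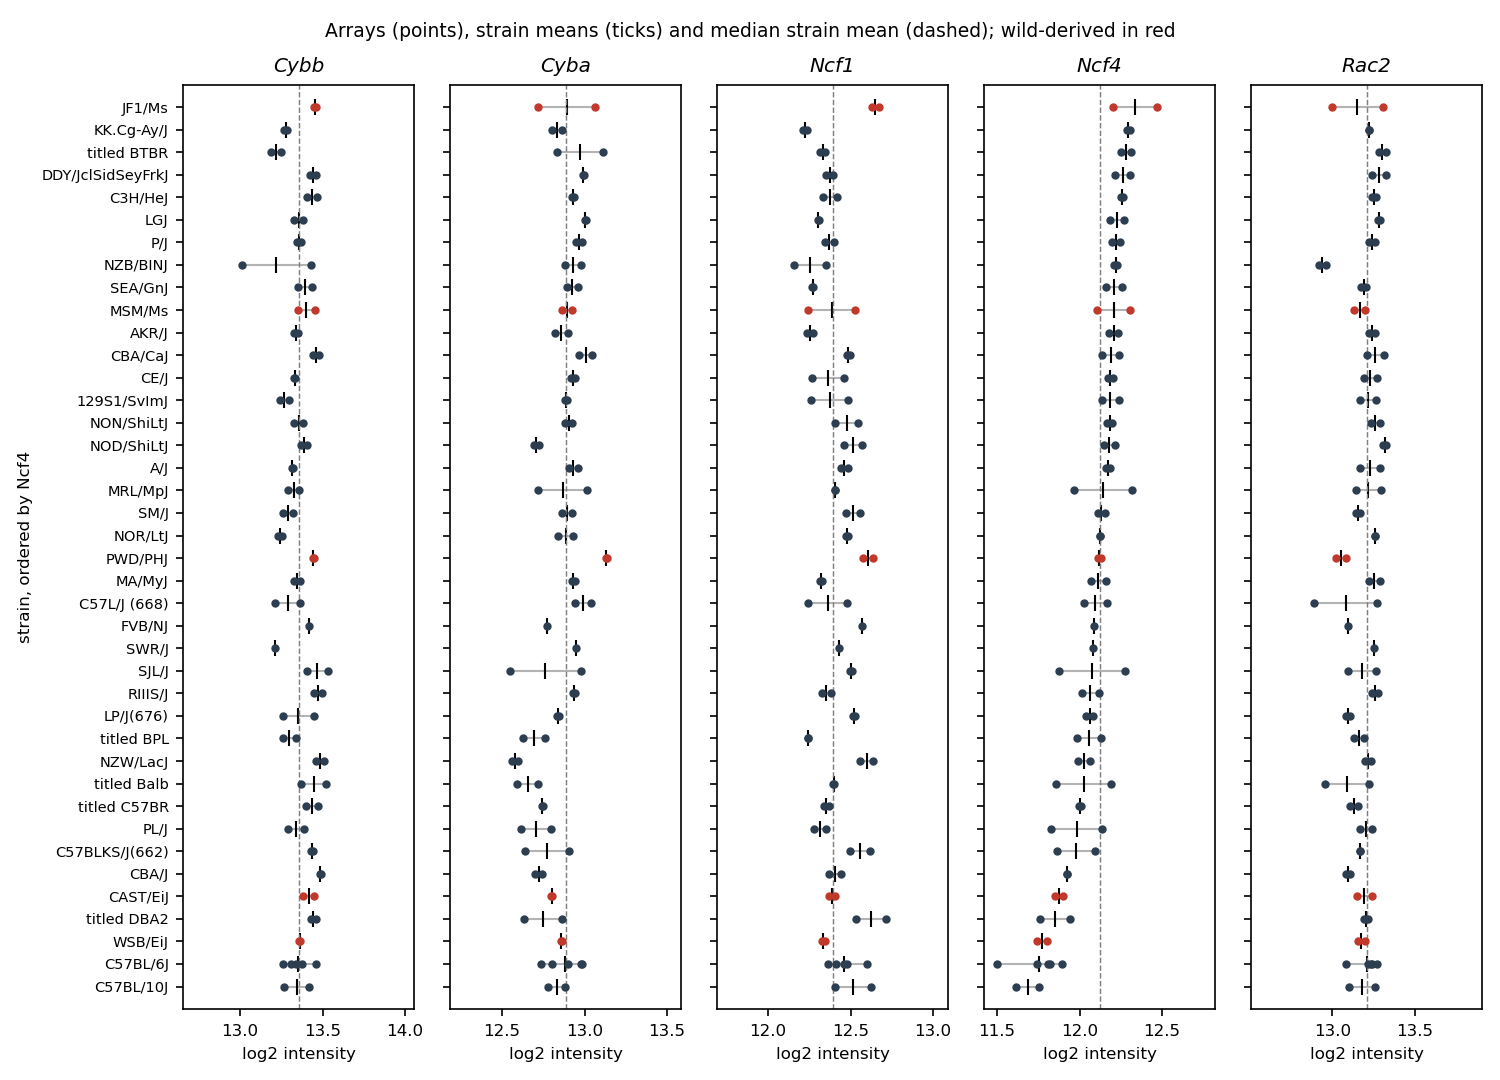
Log2 intensity of each of the 5 subunit genes (1 panel each, horizontal axis) in every array of the 40 strains (rows, ordered by Ncf4). Points are arrays, wild-derived strains in red, ticks are strain means and the dashed line is the median strain mean. Ncf4 is lowest in C57BL/10J and C57BL/6J, while the Cybb means lie within 0.27 of each other on this scale.

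Within each gene the ordered strain means formed a gradual series. The largest gap between neighbours in the order was 0.12 for Cyba, between CBA/CaJ and PWD/PHJ, and 0.11 for Rac2, between NZB/BINJ and PWD/PHJ. The standard errors of these differences were 0.11 and 0.09. For Cybb, Ncf1 and Ncf4 the largest neighbour gaps were 0.03, 0.03 and 0.08, each below its standard error. The largest ratio of a neighbour gap to its standard error was 1.21, for Rac2. Sorting many strain means within a narrow range makes neighbour gaps small by construction. These gaps therefore cannot show whether adjacent strains differ.

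Each strain was also set against the mean of the other 39. Of 200 such comparisons (5 genes in 40 strains) 11 were called, 7 lower and 4 higher, or 5.50%, against 9.43% of the comparisons over all probe sets (4.51% lower and 4.92% higher). The calls fell in 9 strains: 4 for Ncf4, 4 for Ncf1, 2 for Cyba, 1 for Rac2 and 0 for Cybb. Thus 4 of the 5 genes had a strain apart, beside 73.1% of all probe sets. These counts depended on the scaling: after quantile normalization 22 of 200 were called (11%, beside 9.85% of all comparisons), 5 of them for Cybb, and with a common median 12 (6.00%, beside 8.46%), 1 of them for Cybb.

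**Figure D2:**
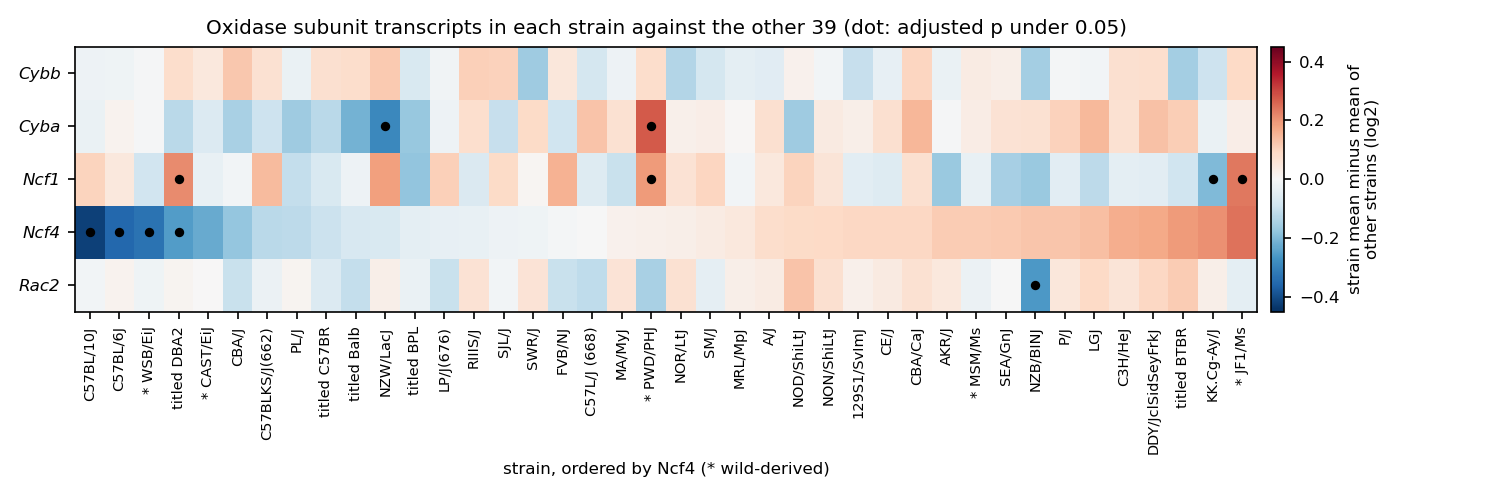
Heat map of each strain mean minus the mean of the other 39 strains (log2) for the 5 subunit genes in rows and the 40 strains in columns, ordered by Ncf4; a dot marks a strain that differed from the other 39 at an adjusted p below 0.05. The 11 dots fall in 9 strains, with 4 in the Ncf4 row, all on the low side, and 0 in the Cybb row on the deposited scale.

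Cybb, the catalytic subunit, had the narrowest range of the 5 genes on the deposited scale. Its arrays ran from 13.01 to 13.53 with a median of 13.37. The strain means ran from 13.21 in SWR/J (1 array) to 13.49 in CBA/J (13.49 and 13.48). NZB/BINJ lay among the lowest at 13.22, but its arrays read 13.01 and 13.43, so a single array held the lowest value of the series and the other lay above the median. NZB/BINJ differed from the other strains by -0.15 (adjusted p = 0.122), and by -0.25 (adjusted p = 0.0128) with arrays shifted to a common median. After quantile normalization Cybb was instead called lower in titled BTBR (-0.28, adjusted p = 0.00148), NON/ShiLtJ (-0.22, 0.0178), SWR/J (-0.31, 0.0186) and A/J (-0.19, 0.0418), and higher in CBA/J (0.20, 0.0334). Without its replicate 1 the F test for Cybb had an adjusted p of 0.035, without its replicate 2 of 0.00353, and with NZB/BINJ left out of 0.0321. Titled BTBR (13.22) and NOR/LtJ (13.24) followed at the low end, and NZW/LacJ (13.48) and RIIIS/J (13.47) stood near the top.

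Cyba, the membrane partner of Cybb, was low in NZW/LacJ and high in PWD/PHJ. The NZW/LacJ arrays read 12.56 and 12.60, against a median of 12.89 and a range of 12.55 to 13.13 in the other arrays. Of 79 arrays of other strains, 2 lay at or below the higher NZW/LacJ array. The strain mean differed from the others by -0.29 ± 0.08 (SE; adjusted p = 0.00883). Both PWD/PHJ arrays read 13.13, above all 79 arrays of other strains, of which the highest read 13.11. PWD/PHJ was higher by 0.28 ± 0.08 (SE; adjusted p = 0.014). Each call rests on both arrays of its strain: with 1 array left, the adjusted p was 0.0692 or 0.123 for NZW/LacJ and 0.118 or 0.125 for PWD/PHJ. Next to NZW/LacJ at the low end stood titled Balb (12.66), titled BPL (12.69), PL/J (12.71) and NOD/ShiLtJ (12.71). Below PWD/PHJ at the high end stood CBA/CaJ (13.01). On the deposited scale these did not pass the test. After quantile normalization Cyba was also called lower in titled Balb (-0.27, adjusted p = 0.00436) and NOD/ShiLtJ (-0.23, 0.018), and higher in LGJ (0.21, 0.0352).

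Ncf1, the organiser subunit, was called in 4 strains. The JF1/Ms arrays read 12.63 and 12.67, the PWD/PHJ arrays 12.64 and 12.58, and those of titled DBA2 12.53 and 12.72. The KK.Cg-Ay/J arrays read 12.24 and 12.21. Over all arrays Ncf1 ran from 12.16 to 12.72 with a median of 12.41, so the first 3 strains lay high and KK.Cg-Ay/J low, without standing clear of every other array. JF1/Ms was higher by 0.24 ± 0.07 (SE; adjusted p = 0.0107), with 3 of 79 other arrays at or above its lower array. Titled DBA2 was higher by 0.21 (adjusted p = 0.0272, 13 of 79 other arrays) and PWD/PHJ by 0.19 (adjusted p = 0.0496, 7 of 79). KK.Cg-Ay/J was lower, with a difference of -0.20 ± 0.07 (SE; adjusted p = 0.0406) and 1 of 79 other arrays at or below its higher array. The PWD/PHJ call sat at the threshold and remained in 18 of 81 fits that left out 1 array. The KK.Cg-Ay/J difference became -0.16 (adjusted p = 0.118) after quantile normalization. Titled DBA2 lost its call under both other scalings, at adjusted p of 0.0568 with quantile normalization and 0.0854 with a common median, and its difference was 0.12 (adjusted p = 0.515) without its replicate 2. With 1 of its own arrays left out the JF1/Ms difference had an adjusted p of 0.0645 or 0.151, and the KK.Cg-Ay/J difference 0.167 or 0.249. At the low end NZB/BINJ (12.26), AKR/J (12.26) and titled BPL (12.24) lay close to KK.Cg-Ay/J. NZW/LacJ (12.60) and FVB/NJ (12.57, 1 array) lay near the top. None of these strains had a call on the deposited scale. With a common median Ncf1 was also called lower in NZB/BINJ (-0.26, adjusted p = 0.0108) and higher in NZW/LacJ (0.23, 0.0314). After quantile normalization it was called lower in titled BPL (-0.20, adjusted p = 0.038) and higher in C57BL/6J (0.13, 0.0287).

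Ncf4, the phosphoinositide-binding subunit, varied most of the 5 and was low in C57BL/10J and C57BL/6J. The C57BL/6J arrays read 11.50, 11.89, 11.74, 11.82 and 11.81, a mean of 11.75 ± 0.15 (SD, n = 5). The C57BL/10J arrays read 11.76 and 11.62. The arrays of the other strains had a median of 12.13 (C57BL/10J) or 12.14 (C57BL/6J) and a maximum of 12.47. All 7 arrays of the 2 strains lay below those medians, and of 76 arrays of other strains 10 lay at or below the highest C57BL/6J array. C57BL/6J differed from the other strains by -0.35 ± 0.05 (SE; adjusted p = 2.7e-06) and C57BL/10J by -0.42 ± 0.08 (SE; adjusted p = 0.000262). Both remained called in all 81 fits without 1 array, with the largest adjusted p at 0.000213 and 0.0485, and in all 9 other settings. At the level of the whole array 11.6% of probe sets were called in C57BL/6J, 7.52% in C57BL/10J and 8.14% in WSB/EiJ.
The wild-derived WSB/EiJ was also low, at 11.74 and 11.80, a difference of -0.33 ± 0.08 (SE; adjusted p = 0.00502); without its replicate 1 the adjusted p was 0.115. Titled DBA2 read 11.76 and 11.94, a difference of -0.25 ± 0.08 (SE; adjusted p = 0.0458), which remained called in 49 of 81 fits without 1 array and was -0.16 (adjusted p = 0.496) without its own replicate 1. CAST/EiJ (11.87), CBA/J (11.93), C57BLKS/J(662) (11.98) and titled C57BR followed in the order, and C57L/J (668) stood at 12.09; none of these 5 passed. The highest strain was JF1/Ms, at 12.47 and 12.20, followed by KK.Cg-Ay/J (12.30) and titled BTBR (12.28), without a call on the deposited scale. After quantile normalization Ncf4 was called higher in JF1/Ms (0.33, adjusted p = 0.000966), KK.Cg-Ay/J (0.25, 0.0191) and NZB/BINJ (0.22, 0.0474). With NZB/BINJ left out it was called higher in JF1/Ms (0.25, adjusted p = 0.0481). The neutrophil marker mean was 13.35 in C57BL/6J, 13.35 in C57BL/10J and 13.34 in WSB/EiJ, in the middle of its range, while the monocyte and macrophage mean was 7.41, 7.55 and 6.91 in the same strains. The T and NK cell mean was 6.28 in C57BL/6J (rank 6 of 40 from the lowest), 6.22 in C57BL/10J (rank 2) and 6.97 in WSB/EiJ (rank 26), and the cell cycle mean ranked 6, 25 and 18. Their part in the Ncf4 levels was not tested.

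Rac2, the haematopoietic GTPase of the complex, was low in NZB/BINJ. The NZB/BINJ arrays read 12.92 and 12.96, and over all arrays Rac2 ran from 12.89 to 13.33 with a median of 13.22. Of 79 other arrays, 2 lay at or below the higher NZB/BINJ array. The difference was -0.26 ± 0.07 (SE; adjusted p = 0.00574). It was -0.14 (adjusted p = 0.125) after quantile normalization, -0.36 (adjusted p = 0.000375) with arrays shifted to a common median, and -0.24 (adjusted p = 0.106) without NZB/BINJ replicate 1. The array-wide features of NZB/BINJ given above move with this result, and their part in it was not tested. PWD/PHJ (13.05), C57L/J (668) (13.08 ± 0.27, SD, n = 2) and titled Balb (13.09) came next. NOD/ShiLtJ (13.32) and titled BTBR (13.30) stood highest. None of these strains had a call on the deposited scale. After quantile normalization Rac2 was called lower in titled Balb (-0.18, adjusted p = 0.0332). Leaving out C57L/J (668) replicate 1 brought the F test for Rac2 to an adjusted p of 0.0394.

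**Figure D3:**
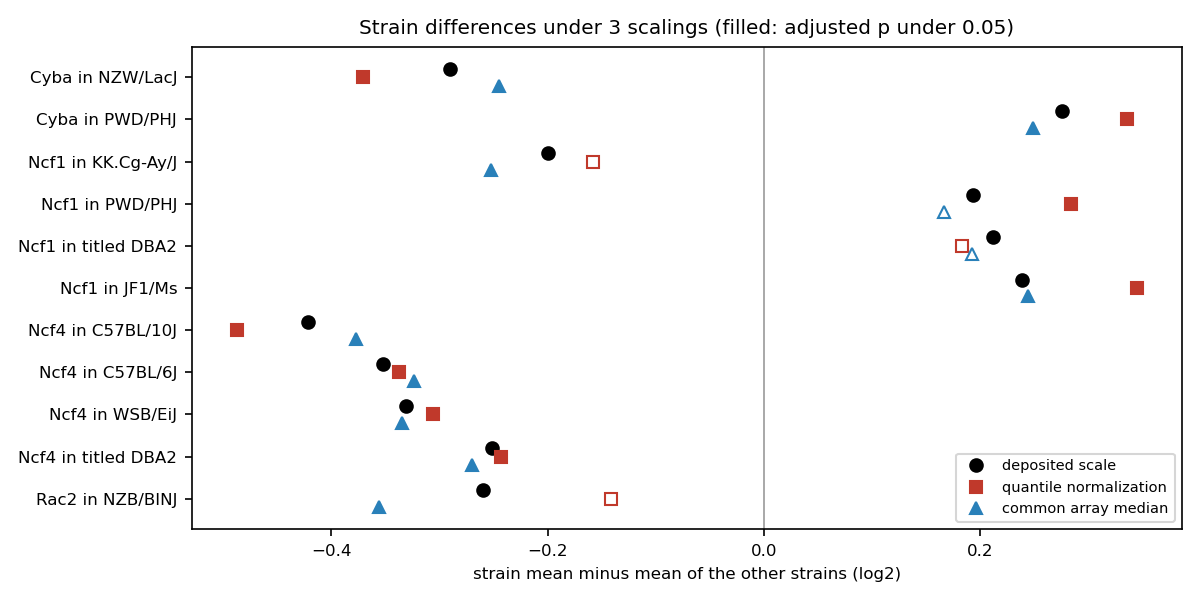
The 11 called differences between a strain and the other 39 (log2, horizontal axis) as deposited, after quantile normalization and with arrays shifted to a common median; filled markers have an adjusted p below 0.05. The Ncf4 differences in C57BL/6J, C57BL/10J, WSB/EiJ and titled DBA2 are filled under all 3 scalings. So are those of Cyba in NZW/LacJ and PWD/PHJ and of Ncf1 in JF1/Ms. The Rac2 difference in NZB/BINJ is open after quantile normalization.

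Wild-derived and classical strains were compared over strain means, 5 against 35. None of the 5 genes passed the limma test and 0 had an unadjusted p below 0.05, against 12.2% of all probe sets called. Ncf4 averaged 12.06 ± 0.23 (SD, n = 5) in the wild-derived strains and 12.10 ± 0.14 (SD, n = 35) in the classical ones, a difference of -0.04 ± 0.07 (SE; adjusted p = 0.785), and this difference changed sign after quantile normalization (0.0042). The wild-derived strains differed among themselves for this gene, from 11.77 in WSB/EiJ to 12.34 in JF1/Ms. The differences for Cybb, Cyba and Ncf1 were 0.05 ± 0.04, 0.06 ± 0.05 and 0.06 ± 0.05 (SE), with adjusted p of 0.395, 0.514 and 0.491. For Rac2 it was -0.05 ± 0.04 (SE; adjusted p = 0.42), and it turned to 0.03 after quantile normalization.

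Of 4 pairs of related strains, NZB/BINJ and NZW/LacJ, parents of a lupus-prone hybrid, gave all the calls on the deposited scale. Here 4 of 5 genes differed, beside 45.5% of all probe sets. Relative to NZW/LacJ, NZB/BINJ had more Cyba (0.35 ± 0.11, SE; adjusted p = 0.00855) and less Ncf1 (-0.34 ± 0.09; 0.00264), Rac2 (-0.28 ± 0.09; 0.0137) and Cybb (-0.26 ± 0.09; 0.0121). Ncf4 differed by 0.19 ± 0.12 (adjusted p = 0.175). The calls depended on scale and on single arrays. After quantile normalization Cyba (0.51, adjusted p = 5.71e-05) and Ncf4 (0.34, 0.00985) passed, while Ncf1 (-0.18, 0.123), Rac2 (-0.15, 0.145) and Cybb (-0.07, 0.599) did not. With a common median Cyba was at 0.21 (adjusted p = 0.136), while Cybb, Ncf1 and Rac2 remained called. The count was 1 without NZB/BINJ replicate 1, where Cybb was at -0.05, and 0 without NZW/LacJ replicate 1.
C57BL/10J and C57BL/6J, both low in Ncf4, differed from each other by -0.07 ± 0.10 (SE) for that gene (adjusted p = 0.843). On the deposited scale no member was called between these strains (2.65% of all probe sets were), between CBA/J and CBA/CaJ (1.71%) or between NOD/ShiLtJ and NOR/LtJ (5.56%). The largest of these differences was Cyba in CBA/J against CBA/CaJ, at 12.70 and 12.74 against 13.05 and 12.97. The difference of -0.29 ± 0.11 (SE) had an adjusted p of 0.226. After quantile normalization it was -0.35 and passed (adjusted p = 0.0325), beside 1.90% of all probe sets.

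The 5 genes did not form a single pattern across strains. Over the 40 strain means, Cyba and Ncf4 had r = 0.43 (rho = 0.59, and r = 0.47 without the 2 strains farthest from the Cyba median), and Cybb and Ncf1 had r = 0.42 (rho = 0.42, and r = 0.41 without 2 strains). Ncf4 and Rac2 had r = 0.21 (rho = 0.40, r = 0.26 without 2 strains), and Cybb and Cyba r = -0.28 (rho = -0.22, r = -0.24 without 2 strains). After quantile normalization the strain r was 0.44 for Cyba and Ncf4, 0.39 for Cybb and Ncf1, 0.07 for Ncf4 and Rac2, and 0.11 for Cybb and Cyba, whose sign turned. Cybb and Rac2 went from -0.06 to 0.33. These values describe related strains measured on shared arrays and carry no test.
Between arrays of the same strain the relations were tighter for Cyba, Ncf4 and Rac2. As deviations from the strain mean over 79 arrays, Cyba and Ncf4 had r = 0.78, Ncf4 and Rac2 0.66, and Cyba and Rac2 0.46. In a group of 2 arrays the 2 deviations are equal and opposite, so the 79 values are not independent. After quantile normalization these were 0.68, 0.51 and 0.38. JF1/Ms replicate 1 exceeded replicate 2 for Cyba (13.06 against 12.72), Ncf4 (12.47 against 12.20) and Rac2 (13.30 against 12.99). In SJL/J replicate 2 exceeded replicate 1 for Cyba (12.98 against 12.55), Ncf4 (12.27 against 11.87) and Rac2 (13.26 against 13.10). C57BL/6J replicate 1 was the lowest of 5 for the same genes (Cyba 12.73, Ncf4 11.50, Rac2 13.08) and the highest of 5 for Cybb (13.46). Cybb ran against Cyba (r = -0.39) and Ncf4 (r = -0.30) within strains, and with Ncf1 it had r = 0.05, or 0.32 without NZB/BINJ. Other strains went differently. In C57L/J (668) Rac2 read 13.27 and 12.89 while Cyba read 12.94 and 13.04, and in C57BLKS/J(662) Cyba read 12.91 and 12.64 with Rac2 at 13.17 in both arrays.

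**Figure D4:**
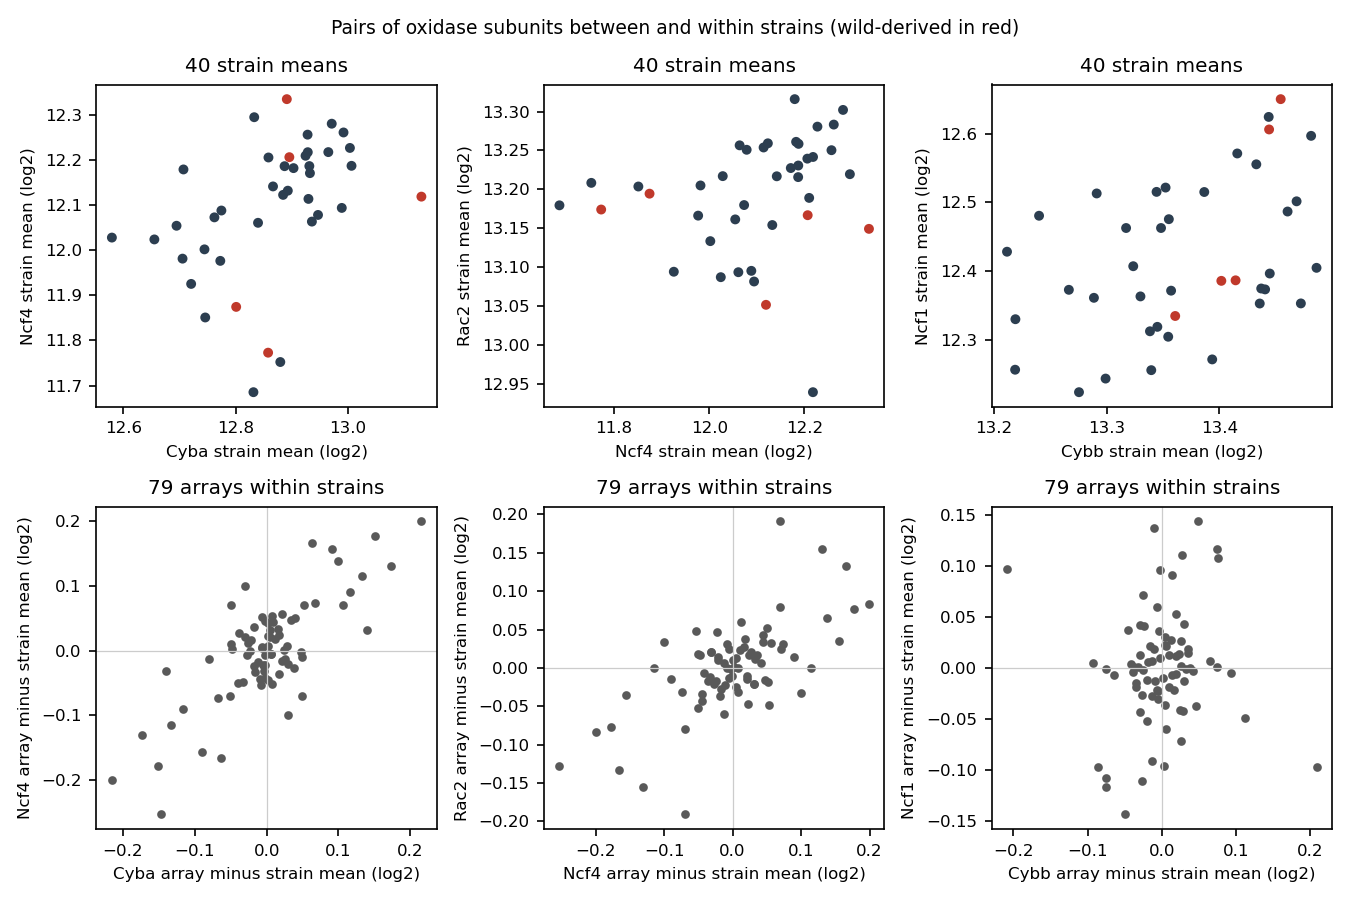
Pairs of subunit genes plotted against each other in log2 intensity: Cyba and Ncf4, Ncf4 and Rac2, Cybb and Ncf1. The top row shows the 40 strain means and the bottom row the deviations of 79 arrays from their strain means; Cyba and Ncf4 have r = 0.43 above and 0.78 below, Cybb and Ncf1 0.42 above and 0.05 below.

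The likeness of strain patterns was measured against 10441 other genes whose brightest strain reached 7 or more. The strain pattern of Ncf4 was most like that of Cyth4 (r = 0.64), Gtpbp1 (0.60), Cmah (0.59), Galnt10 (0.56) and Ccdc107 (0.56). Cyth4, an exchange factor of ARF GTPases, and Gtpbp1 lie on chromosome 15 with Ncf4, as do 4% of the genes compared, which was noticed after the values were seen. Cyth4 is the protein-coding gene next to Rac2. It differed among strains (adjusted p = 0.000198) and was lower in C57BL/10J (-0.29, adjusted p = 0.011). In C57BL/6J its difference was -0.11 (adjusted p = 0.211). For Cybb the closest patterns were those of Mospd2 (r = 0.81), Arfgef1 (0.80), Csnk2a1 (0.80), Atp2c1 (0.79) and Papola (0.77). Of these, Mospd2 lies on the X chromosome as Cybb does, and so do 2.65% of the genes compared. Cyba was closest to Mrps21 (0.79), Tpgs1 (0.77), Wbp2 (0.73), Mrtfa (0.71) and Unc13d (0.70). Ncf1 was closest to Pgk1 (0.67), Myh9 (0.66), Rell1 (0.66), Clint1 (0.66) and Eif4b (0.64). Rell1 lies on chromosome 5 with Ncf1, as do 6.39% of the genes compared. Rac2 was closest to Abca7 (0.85), Emd (0.78), Orai1 (0.77), Capn1 (0.76) and Tecr (0.74). For Cyba and for Rac2, 0 of the 5 closest genes lay on the chromosome of the member. No member was among the 5 closest genes of another member. Each r is over 40 strain means; without NZB/BINJ the r of Rac2 was 0.80 with Abca7 and 0.69 with Orai1.

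Ncf4 and Rac2 lie on the same stretch of chromosome 15 in the RefSeq gene order, with 10 protein-coding genes between them, all with a probe set. Of these, 4 differed among strains, beside the 56.0% background: Csf2rb2 and Csf2rb, receptor chains of the GM-CSF family, and Tst and Mpst, sulfurtransferases. Csf2rb2 ran from 7.50 in LP/J(676) to 10.03 in DDY/JclSidSeyFrkJ (adjusted p = 9.1e-12) and Csf2rb from 11.31 to 12.05 (adjusted p = 2.19e-05). Tst was higher, by 0.39 in C57BL/6J (adjusted p = 0.0316) and 0.86 in C57BL/10J (0.00117), and Mpst by 0.24 (0.00359) and 0.42 (0.000809). In WSB/EiJ, also low in Ncf4, Mpst was lower (-0.33, adjusted p = 0.0124) and Tst differed by -0.23 (0.569). In titled DBA2 the differences were 0.39 for Tst (0.235) and 0.18 for Mpst (0.267). Across the 40 strains the 10 genes had r with Ncf4 between -0.26 and 0.22.

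Of 13 other oxidase components and homologues measured, 2 differed among strains and 11 did not, beside 56.0% of all probe sets called. Apart from Rac1 and Cybc1, the uncalled genes were Nox and Duox homologues and their partners. Their means ran from 4.82 (Nox4) to 7.11 (Duoxa1), while array medians lay between 6.60 and 6.84. With signal this low, a missing call says little about them. Hvcn1, the proton channel that balances the charge moved by the oxidase, ran from 8.94 in MSM/Ms to 11.68 in NON/ShiLtJ (adjusted p = 2.21e-17). Its range of 2.74 exceeded that of each of the 5 subunits. The strain means of Hvcn1 averaged 11.01 with an SD of 0.456, so most of this range lay between that average and MSM/Ms. Rap1a, a GTPase that copurifies with the membrane pair, ran from 10.76 in NZB/BINJ to 11.55 in CAST/EiJ (adjusted p = 0.0171, and 0.00899 without NZB/BINJ, with 10.91 in NON/ShiLtJ then the lowest). Rac1, the close relative of Rac2, ran from 11.95 to 12.36 (adjusted p = 0.0696) and Cybc1, a chaperone of the membrane pair, from 9.32 to 9.92 (0.129). The median SD of strain means was 0.107 over this list, which includes these dim genes, and 0.141 over all probe sets.
Of 19 genes of oxidase activation and Rac control, 12 differed among strains, beside 56.0% of all probe sets. Pla2g4a, the cytosolic phospholipase, ran from 8.62 in NZB/BINJ to 10.17 in FVB/NJ (adjusted p = 2.14e-07). The Rac exchange factors Tiam1 (9.18 in NZB/BINJ to 10.12 in P/J; adjusted p = 1.1e-09), Tiam2 (7.53 in CAST/EiJ to 8.54 in WSB/EiJ; 2.62e-08) and Vav3 (9.55 in titled BTBR to 10.36 in SEA/GnJ; 5.11e-05) followed by spread. Without NZB/BINJ the lowest Pla2g4a mean was 8.71 in A/J (adjusted p = 4e-09) and the lowest Tiam1 mean 9.46 in titled C57BR (8.46e-09). The list mean was lowest in NZB/BINJ (10.33), next lowest in C57L/J (668) (10.45) and highest in JF1/Ms (10.66). The median SD of strain means was 0.109 over the list.
Of 12 transcription factors of the oxidase genes, 10 differed, beside 56.0% of all probe sets. The widest were Gfi1 (7.35 in JF1/Ms to 8.54 in C3H/HeJ; adjusted p = 1.33e-14), Cebpe (10.25 in PL/J to 11.30 in titled BTBR; 3.15e-06), Cebpa (7.88 in SM/J to 8.83 in MRL/MpJ; 0.000171) and Cebpd (9.52 in PL/J to 10.42 in JF1/Ms; 3.77e-07). Spi1 ran from 12.51 in CBA/J to 12.90 in A/J (adjusted p = 0.0054). Over the 40 strains Spi1 had r = -0.42 with Cybb, 0.36 with Rac2 and 0.23 with Ncf4. With Cyba its r was 0.21 and with Ncf1 -0.16, so the sign differed among the subunits on the deposited scale. Whether these signs hold under another scaling was not tested.

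Markers of other cells and stages were read beside the subunits. Of the neutrophil markers 8 of 12 differed among strains, 0 of them with a 2-fold range. Of all probe sets, 56.0% were called, and 24.5% were called with such a range. Of the monocyte and macrophage markers 10 of 11 differed, 9 with a 2-fold range, and the list mean was 6.89 in JF1/Ms, the lowest strain, and 7.74 in titled BTBR, the highest. All 16 cell cycle genes differed with a 2-fold range, with list means between 6.89 (NOR/LtJ) and 9.43 (NON/ShiLtJ). The counts were 6 of 7 for granulocyte progenitor markers, 4 of 8 for B cell, 4 of 7 for T and NK cell, 3 of 6 for eosinophil, 2 of 4 for megakaryocyte and 1 of 4 for erythroid markers.
Across strains Cybb had r = -0.61 with the erythroid mean, -0.52 with the B cell mean and -0.44 with the monocyte and macrophage mean (-0.55, -0.45 and -0.39 without NZB/BINJ). The erythroid mean ran from 6.45 to 6.87 over the strains and the B cell mean from 5.97 to 6.45. Both lie around or below the array medians (6.60 to 6.84), so they come from dim probe sets. Whether they reflect such cells or the signal floor was not tested. Rac2 had r = -0.40 (rho = -0.22) with the erythroid mean, and -0.18 without NZB/BINJ, so this value rests on that strain. Ncf4 had r between -0.09 (eosinophil) and 0.18 (megakaryocyte) with the 9 lists of cell and stage markers. JF1/Ms, high in Ncf1, had the lowest progenitor mean (6.12) and the lowest monocyte and macrophage mean. The part of these markers in the levels of the subunits was not tested.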

How the data were processed

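RNA of sorted bone marrow granulocytes (81 arrays, 40 title groups) was extracted with TriZol and labelled with the Affymetrix WT Terminal Labeling kit, per the labels' protocols. The authors deposited linear intensity values per probe set, made with Affymetrix Power Tools and RMA per the submitters' processing notes; no version or genome build was stated there. Values ran from 5.30 to 19348 and were turned to log2 with no further scaling. Platform annotation gave 1 symbol to 21425 probe sets, several to 1399 and none to 2098. limma 3.58.1 (R 4.3.3) fitted 40 group means; strain differences, single-strain contrasts and related pairs come from it, and origin from a fit to strain means. P-values were adjusted by Benjamini-Hochberg over all probe sets, and over the 40 contrasts jointly for single strains; the threshold was 0.05. Scripts were tested on simulated data. The text names each probe set whose only symbol is a member, up to 4 called genes per list by largest SD of strain means, the 5 genes most like each member, and called genes between members that neighbour each other. Other genes it names (Rac1, Cybc1, Spi1, Cyth4 by position) were added for context. The members and lists were chosen with earlier results of these data known. Array number limits precision. Alternatives were other scalings, variance prior, low-value filter, replicate block, groupings, and leaving out arrays or NZB/BINJ.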

Additional observations from a re-analysis of the deposited data

Results flagged for a closer look

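Cyba in PWD/PHJ stood apart from the other wild-derived strains, with a strain mean of 13.13 against 12.80 to 12.90 in the other 4. The gap to the next strain was 0.713 of the range over the 5 strain means, just above the 95% critical value of Dixon's test for 5 values (0.71). Of 10 sets of 5 values examined (the C57BL/6J arrays and the wild-derived means of each gene), this was the only 1 past that value, and chance passes about 1 in 20 such sets. Whether it reflects more than chance was not tested.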

How the results depend on the processing

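The genes called among strains were 3 (Cyba, Ncf1 and Ncf4), and 5 with arrays shifted to a common median and 5 with quantile normalization; leaving out single arrays gave 3 to 4. Calls of a member in a single strain were 11, and 22 (11% of comparisons, beside 9.85% over all probe sets) after quantile normalization, with 8 to 14 over single arrays left out. For related strains the count was 4, with 0 to 4 over single arrays left out. No member was called by origin under any setting run. The Ncf4 difference by origin reversed to 0.0042 after quantile normalization, to 0.0080 without CAST/EiJ and to 0.033 without WSB/EiJ (from -0.11 to 0.033 over the 5 strains left out in turn), and that of Rac2 reversed to 0.034 after quantile normalization. The replicate numbers showed no pairing of the arrays on average. Over 595 pairs of groups the deviations of replicate 1 had a mean correlation of 0.0066, and 31.3% of the pairs lay above 0.1. Such a mean cannot exclude pairing among some of the strains. With the replicate number as a block 3 genes were called among strains, 10 in single strains (Ncf4 in titled DBA2 moved to an adjusted p of 0.0568), 4 between related strains and 0 by origin. Leaving out NZB/BINJ, and reading the other scalings per related pair, were alternatives chosen after seeing the data. Except where stated, the cause of these changes was not tested. Groups of 2 arrays limit what the single-strain tests can call, and probe sequences were not compared with strain sequences here.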
